A study of Rattus norvegicus with 6 samples.

Results

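Potassium channel genes, those whose symbols start with Kcn, were followed in rat kidney on 6 Agilent one-colour arrays: 3 from rats given Bailing Capsule, a fermented Cordyceps preparation, and 3 from diabetic rats, all 21 weeks old. The labels name no strain, sex, dose, diabetes model or untreated animals, and do not say whether the treated rats were diabetic. A gene was a member when its RefSeq accession on the array mapped to a Kcn symbol other than Kcnj1, which the rule sets aside, and a probe was well above background on all 3 arrays of at least 1 group. Of 89 such genes with a probe, 53 passed, and 52 of these were among the 17892 features tested. The detection flags thus chose the members, and 48 of the tested ones were well above background on all 6 arrays. The labels do not say that the replicates of a group came from separate animals, so p-values cover the spread among these samples, which may be technical.

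Potassium channels let potassium ions leave or enter cells down their electrochemical gradient and set the membrane voltage. Pore-forming subunits fall into voltage-gated, inward rectifier, tandem-pore domain and calcium- or sodium-activated channels, and auxiliary subunits change how the pores open or where they sit. In the nephron they recycle potassium across the basolateral membrane to keep the sodium pump running, hold the voltage that drives transport, and secrete potassium into the distal tubule and collecting duct. In renal vessels they set the tone of smooth muscle.

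The share of probes well above background ran from 64.55% to 73.46% over the arrays, no spot was saturated, and pairs of arrays correlated at 0.966 to 0.992. All 8 kidney markers (among them Umod, Nphs1, Slc34a1, Lrp2, Cdh16, Aqp1 and Aqp2) were well above background on every array. The file headers give 2 scan times: scan 1 held the 3 Bailing Capsule arrays and diabetic replicate 1, and scan 2 held diabetic replicates 2 and 3. Scan and group are therefore partly confounded, and values with scan as a block are given beside the members whose sign or size it moved most; scan 2 held no Bailing Capsule array, so the blocked difference rests on diabetic replicate 1 alone. In whole kidney, fewer cells of a type and less RNA per cell cannot be told apart.

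Voltage-gated alpha subunits formed the largest class, with 22 of 38 genes above background. Of the auxiliary genes 9 of 17 passed, of inward rectifiers 9 of 14, of tandem-pore channels 9 of 13 and of calcium- or sodium-activated channels 4 of 7. Of the 36 genes that did not pass, 23 had no probe above background on any array. A further 7 (Kcna2, Kcna3, Kcnf1, Kcnh5, Kcnj9, Kcnk18 and Kcnt2) reached 2 arrays of a group, just short of the rule. Just inside it were Kcnk10 and Kcnc2, which passed through the Bailing Capsule arrays with 1 and 2 diabetic arrays above background, and Kcnv1 and Kcnq3, which passed through the diabetic arrays with 1 and 2 Bailing Capsule arrays above background.

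**Figure D1:**
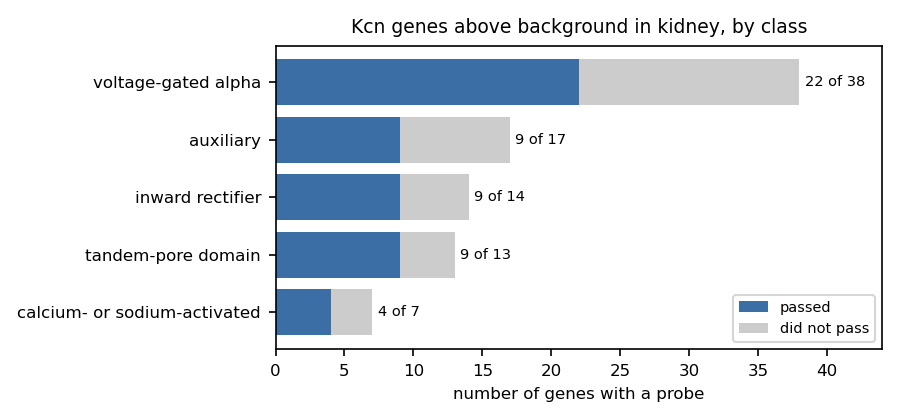
Number of Kcn genes with a probe on the array, by structural class (horizontal axis, genes; blue, passed the detection rule; grey, did not pass). Of the 38 voltage-gated alpha genes 22 passed.

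Several channels known in kidney were among the undetected genes. The probe of Kcnj10, whose product pairs with that of Kcnj16 in the distal tubule, was above background on 1 Bailing Capsule array and on no diabetic array. Kcna1, Kcna5, Kcnj2, Kcnmb1 and Kcnn4 were not well above background on any array, and Kcne3 was so on 1 diabetic array. A dim probe gives only a bound on the transcript, and levels were not compared between probes.

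No tested member was called different between Bailing Capsule and diabetic kidneys after adjustment over all features. With 3 arrays per group, a member that was not called may still differ. limma called 0 of 52 members at an adjusted p under 0.05, where 0.319% of all 17892 features were called, and the lowest adjusted p among members was 0.172, for Kcnh1. At an unadjusted p under 0.05 there were 12 members, 7 higher and 5 lower, or 23.1% against 7.55% of all features. The groups did not overlap for 9 members, 17.3% against 11.6% of all features. These 9 were 6 with higher values in Bailing Capsule kidneys, a direction found for 4.58% of all features, and 3 with lower values, found for 7.06%. The members were chosen on these arrays, so the shares are a description and nothing particular to the family is read from them.

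The differences of members, Bailing Capsule minus diabetic, had a median of -0.11 on the log2 scale, where all features had -0.09. They ran from -1.19 to 1.24 among the 48 members above background on all 6 arrays, and over all members 19 were positive and 33 negative. They were smaller than 0.5 in size for 34 members, 65.4% against 83% of all features. Class medians were -0.06 for 22 voltage-gated alpha subunits, -0.10 for 9 auxiliary genes, -0.15 for 8 inward rectifiers, -0.16 for 9 tandem-pore channels and 0.33 for 4 calcium- or sodium-activated channels. With normexp background correction, the differences of the 9 members with separate groups shrank to between 0.11 and 0.69 in size, with the same signs.

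**Figure D2:**
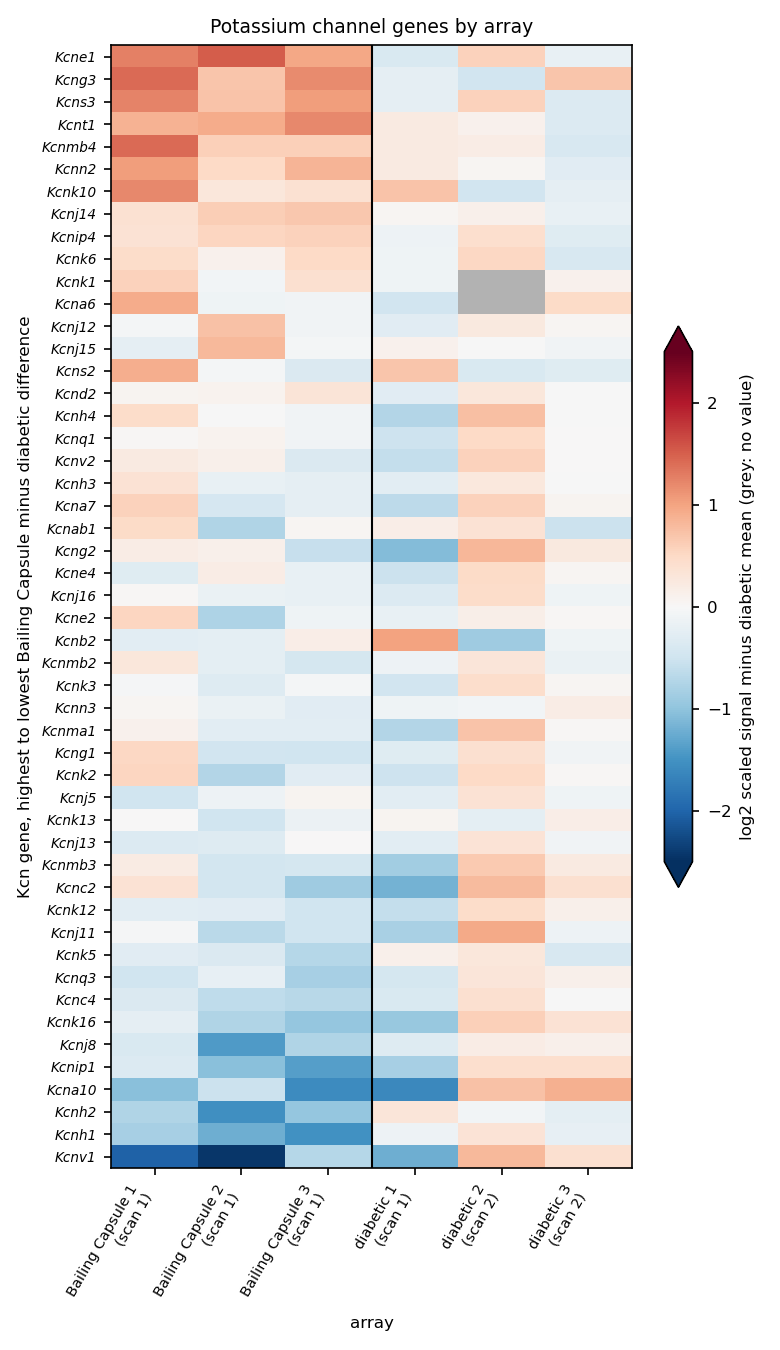
Log2 scaled signal of 50 of the 52 tested Kcn genes (rows, highest to lowest difference) on each array (columns, Bailing Capsule left of diabetic), minus the gene's diabetic mean; grey marks a spot left out as an outlier. Most rows are pale, with Kcne1, Kcng3, Kcns3 and Kcnt1 at the top and Kcnh2, Kcnh1 and Kcnv1 at the bottom, and diabetic 1 is the darkest blue of the diabetic columns for Kcna10, Kcnv1 and Kcnc2.

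Among auxiliary subunits Kcne1 had the largest positive difference of all members. Kcne1 encodes a small single-span protein that joins the Kcnq1 pore and slows its opening, and is known in the proximal tubule brush border. Its log2 scaled signals (log2 signal minus the array's 75th percentile) were -1.23, -0.97 and -1.52 with Bailing Capsule, against -2.87, -1.91 and -2.67 in diabetic kidneys. Every Bailing Capsule value lay above every diabetic value. The difference was 1.24 (SE 0.31, a 2.36-fold higher signal, 95% interval 0.56 to 1.93), with an adjusted p of 0.198 in limma, and 1.63 with scan as a block. Its partner Kcnq1 had -1.80, -1.72 and -1.90 in Bailing Capsule kidneys and -2.33, -1.32 and -1.80 in diabetic kidneys. These groups overlapped, with a difference of 0.01 (95% interval -0.64 to 0.67), or 0.52 with scan as a block. A brighter Kcnq1 probe had outlier flags on 3 arrays. With flagged spots kept it gave 4.05 ± 0.17 in Bailing Capsule kidneys and 3.95 ± 0.32 in diabetic kidneys (SD, n = 3 each), a difference of 0.09. The related subunit genes Kcne2 and Kcne4 had differences of -0.11 and -0.10, which turned to 0.06 and 0.43 with scan as a block.

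The promoters of Kcne1 and Kcnh1 are shown because these genes had the largest differences with groups that did not overlap, in either direction. They are RefSeq sequences of build GRCr8, 300 bases around the annotated start, mostly before it, 5′ to 3′ on the gene's strand, with CG dinucleotides in capitals. Kcne1 lies on the minus strand at chr11:45076984-45077283 and Kcnh1 on the plus strand at chr13:106252966-106253265.
Kcne1: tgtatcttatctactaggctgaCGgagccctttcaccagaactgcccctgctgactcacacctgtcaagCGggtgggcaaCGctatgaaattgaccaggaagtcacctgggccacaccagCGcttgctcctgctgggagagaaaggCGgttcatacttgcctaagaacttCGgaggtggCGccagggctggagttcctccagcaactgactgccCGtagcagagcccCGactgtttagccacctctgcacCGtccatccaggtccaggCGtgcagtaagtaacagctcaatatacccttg
Kcnh1: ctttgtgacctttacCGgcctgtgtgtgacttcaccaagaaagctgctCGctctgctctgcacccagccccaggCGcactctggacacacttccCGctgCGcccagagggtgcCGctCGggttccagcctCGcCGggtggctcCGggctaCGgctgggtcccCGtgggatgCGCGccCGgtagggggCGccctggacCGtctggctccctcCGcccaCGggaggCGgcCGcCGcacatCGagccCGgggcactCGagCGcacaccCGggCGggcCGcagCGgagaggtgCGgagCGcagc
The Kcne1 window held 11 CG dinucleotides and was 56.7% G or C, and the Kcnh1 window held 32 and was 72.7% G or C. Over 33469 rat promoter windows in the table the medians were 7 and 51.7%, and over the 37 windows listed for 32 of the tested members they were 11 and 60.3%. Each motif was searched on both strands. The letters TATAAA were in neither printed window, in 2.7% of member windows and in 14.2% of all windows. AGAACA, a steroid receptor half-site, was in neither printed window, in 21.6% of member windows and in 20.7% of all. AGGTCA, a nuclear receptor half-site, was in the Kcnh1 window on the opposite strand (TGACCT as printed), in 13.5% of member windows and in 16.2% of all. Occurrences of different motifs may share letters and were counted separately, and a match is not evidence of binding.

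Kcnmb4 and its pore Kcnma1 form the large-conductance calcium-activated channel, which secretes potassium in the distal nephron under high flow. Kcnmb4 had -1.57, -2.40 and -2.40 with Bailing Capsule, against -2.77, -2.82 and -3.39 in diabetic kidneys, with no overlap. The difference was 0.87 (SE 0.31, adjusted p = 0.467 in limma), or 0.645 with scan as a block. For Kcnma1 the values were -2.70, -3.07 and -3.07 in Bailing Capsule kidneys and -3.53, -2.09 and -2.77 in diabetic kidneys. These overlapped, at a difference of -0.15 (95% interval -0.94 to 0.64) that turned to 0.58 with scan as a block. The beta subunit genes Kcnmb2 and Kcnmb3 had differences of -0.13 and -0.23, or -0.004 and 0.65 with scan as a block. A second Kcnmb2 probe gave 0.50, so its probes disagree in sign. Markers of intercalated cells, a site of this channel, were higher on the Bailing Capsule arrays: their summed signal on the log2 scale was 5.12, 4.63 and 4.71 there, against 3.86, 4.27 and 3.69 on the diabetic arrays. All 6 had a positive difference and 1, Slc26a4, was called (3.21-fold, adjusted p = 0.0457 in limma). The part of these cells in the Kcnmb4 values was not tested.

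Kcnip1 and Kcnip4 encode calcium-binding proteins that join voltage-gated pores of the Kcnd type. Kcnip1, singled out after its values were seen, had -1.13, -1.83 and -2.16 with Bailing Capsule, against -1.61, -0.36 and -0.37 in diabetic kidneys. Diabetic replicate 1 lay among the Bailing Capsule values and the other diabetic arrays above them. The difference of -0.93 (SE 0.40) became -0.09 with scan as a block. Kcnip4 had a difference of 0.50, Kcnd2, the Kcnd member tested, 0.16, and the auxiliary subunit gene Kcnab1 -0.08. With scan as a block these were 0.62, 0.44 and -0.25.

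Among calcium- or sodium-activated channels, Kcnt1 and Kcnn2 had higher values in every Bailing Capsule kidney than in any diabetic kidney. Kcnt1 encodes a sodium-activated channel. It had -3.38, -3.33 and -3.05 with Bailing Capsule, against -4.02, -4.14 and -4.59 in diabetic kidneys, a difference of 0.99 (SE 0.26, adjusted p = 0.234 in limma). Kcnn2 encodes a small-conductance calcium-activated channel. It had -3.61, -4.17 and -3.82 with Bailing Capsule, against -4.43, -4.60 and -4.95 in diabetic kidneys, a difference of 0.80 (SE 0.27, adjusted p = 0.402). Both signals were dim. With scan as a block Kcnt1 had 0.76 and Kcnn2 0.56. Kcnn3, of the same small-conductance type, had -0.14, or -0.03 with scan as a block.

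**Figure D3:**
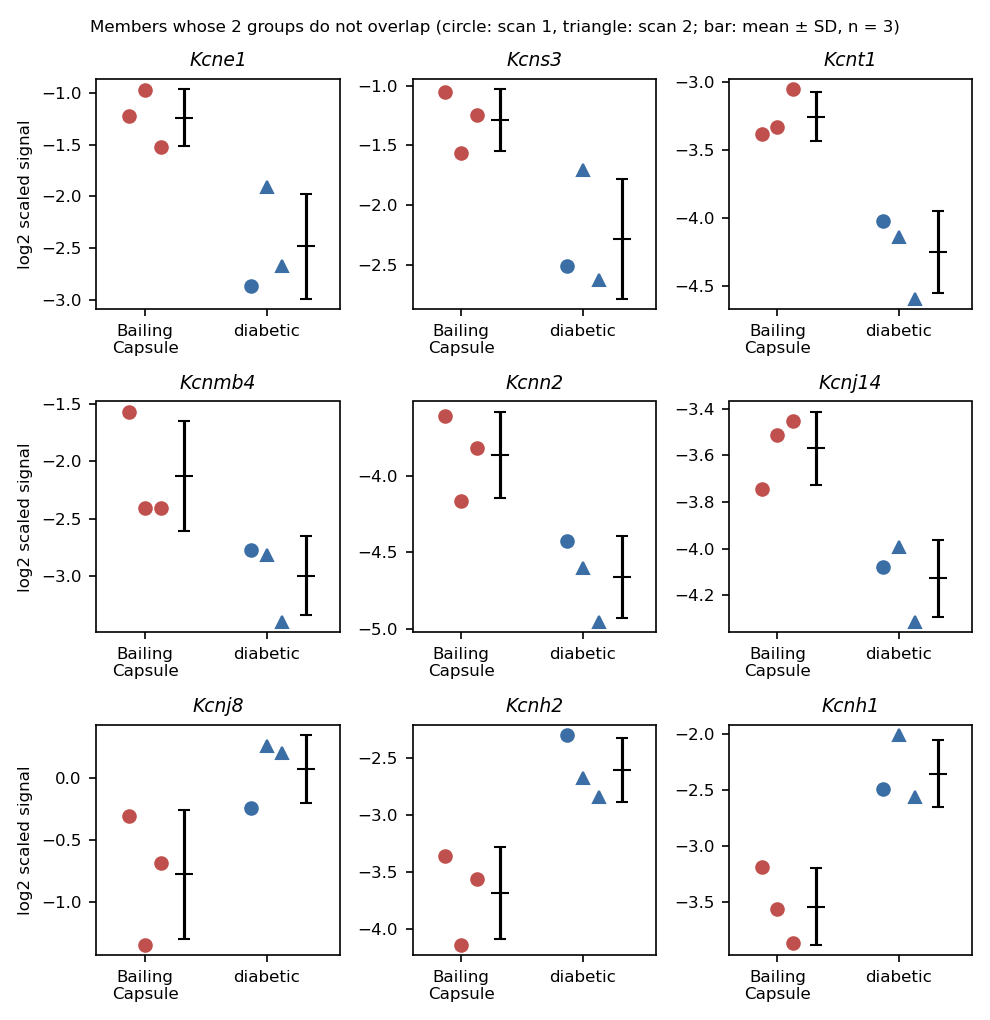
Log2 scaled signal (vertical axes) on each array for the 9 Kcn genes whose groups did not overlap, Bailing Capsule left of diabetic; circles are scan 1, triangles scan 2, and bars the mean ± SD (n = 3). Kcne1, Kcns3, Kcnt1, Kcnmb4, Kcnn2 and Kcnj14 sit higher and Kcnj8, Kcnh2 and Kcnh1 lower in Bailing Capsule kidneys, none of them with an adjusted p under 0.05.

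The voltage-gated class held the member with the lowest p. Kcnh1, of the ether-à-go-go type, had -3.19, -3.57 and -3.87 with Bailing Capsule, against -2.49, -2.01 and -2.57 in diabetic kidneys. The groups did not overlap, and the difference was -1.19 (SE 0.28, a 2.28-fold lower signal, adjusted p = 0.172 in limma). Kcnh2, the ether-à-go-go related channel known for the rapid delayed rectifier of heart, had -3.36, -4.14 and -3.57 with Bailing Capsule, against -2.30, -2.67 and -2.85 in diabetic kidneys. The difference was -1.08 (SE 0.29, adjusted p = 0.249 in limma), while a dimmer Kcnh2 probe gave -0.28. The signals of Kcnh1 and Kcnh2 were dim with Bailing Capsule. Kcnh3 and Kcnh4, of the same Kcnh family, had -0.02 and 0.12, or 0.25 and 0.85 with scan as a block. A dimmer Kcnh3 probe gave -0.39.

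Kcns3 and Kcng3 encode silent subunits, which form no channel alone but join and modify the pores of other voltage-gated subunits. Kcns3 had -1.05, -1.56 and -1.25 with Bailing Capsule, against -2.51, -1.71 and -2.63 in diabetic kidneys, with no overlap. The difference was 0.997 (SE 0.31, adjusted p = 0.325 in limma). Kcng3, singled out after its values were seen, had -0.25, -0.99 and -0.49 with Bailing Capsule, against -1.90, -2.16 and -0.97 in diabetic kidneys. The highest diabetic value lay just above the lowest Bailing Capsule value, and the difference was 1.101 (SE 0.35, adjusted p = 0.347). The further silent subunits Kcng1, Kcng2, Kcns2 and Kcnv2 had differences of -0.16, -0.09, 0.17 and -0.002. All 4 changed sign with scan as a block, to 0.16 for Kcng1, 0.995 for Kcng2, -0.53 for Kcns2 and 0.59 for Kcnv2. For Kcng1 a dimmer probe gave -0.33.

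Kcnv1, a silent subunit, entered only through the diabetic arrays, where it was higher, so its difference is set partly by the detection rule. Its values were -6.34, -6.75 and -5.03 in Bailing Capsule kidneys, where only 1 array was well above background, so that the level there is loosely measured, against -5.53, -3.50 and -3.92 in diabetic kidneys. The groups overlapped through diabetic replicate 1, and the difference of -1.72 (SE 0.56, adjusted p = 0.361 in limma) became -0.51 with scan as a block. Kcna10, a cyclic nucleotide-regulated channel known in the proximal tubule, had -4.32, -3.81 and -4.84 with Bailing Capsule, against -4.89, -2.53 and -2.38 in diabetic kidneys. Diabetic replicate 1 was the lowest of all 6 values, and the difference of -1.06 turned to 0.56 with scan as a block. Without diabetic replicate 1, these were the 2 members that passed, Kcna10 at -1.87 (adjusted p = 0.0289 in limma) and Kcnv1 at -2.33 (adjusted p = 0.0352). In that setting 195 of 17892 features passed. All its Bailing Capsule arrays were of scan 1 and all its diabetic arrays of scan 2, so group and scan cannot be told apart there. The Kcnv1 values are not an exact change, since only 1 Bailing Capsule array was well above background.

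For Kcna6 the brighter probe, which lacks a value for diabetic replicate 2, gave 0.24, or 0.73 with scan as a block, and a dimmer one -0.17. Of the remaining voltage-gated members, Kcnc4 had -0.57, Kcnq3 -0.51, Kcnc2 -0.33, Kcnb2 -0.12 and Kcna7 -0.03, all with overlapping groups. With scan as a block these were -0.18 for Kcnc4, -0.08 for Kcnq3, 0.86 for Kcnc2, -1.12 for Kcnb2 and 0.62 for Kcna7.

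Inward rectifiers pass current more readily into the cell than out and keep the resting voltage of tubule and muscle cells. Kcnj8 encodes the pore of the ATP-sensitive channel of vascular smooth muscle and pericytes. It had -0.31, -1.34 and -0.68 with Bailing Capsule, against -0.24, 0.26 and 0.20 in diabetic kidneys, with no overlap, although the values nearest to each other differed by little. The difference was -0.85 (SE 0.31, adjusted p = 0.493 in limma), -0.57 without Bailing Capsule replicate 2 and -0.54 with scan as a block. Its regulatory partner Abcc9, a sulphonylurea receptor, had -0.001. Of 6 smooth muscle and pericyte markers, Cnn1 was not well above background on any array, and limma called 0 of the 5 tested, whose median difference was -0.07. The summed signal of the 6 on the log2 scale ran from 1.70 to 2.01 with Bailing Capsule. It was 1.88 and 2.32 on diabetic replicates 1 and 3. On diabetic replicate 2 it was 0.30, which is not comparable because the bright marker Acta2 lacks a value there. Differences were -0.41 for Acta2, whose groups did not overlap, -0.30 for Tagln, -0.07 for Des, -0.01 for Pdgfrb and 0.06 for Myh11. The part of these cells in the Kcnj8 values was not tested.

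Kcnj14 was the other inward rectifier with separate groups. Its signals were dim, at -3.75, -3.51 and -3.45 with Bailing Capsule, against -4.08, -3.99 and -4.31 in diabetic kidneys, a difference of 0.56 (SE 0.24, adjusted p = 0.641 in limma). Kcnj16, which lets distal tubule channels sense pH, had a bright probe with 4.66, 4.46 and 4.44 in Bailing Capsule kidneys and 4.28, 5.08 and 4.52 in diabetic kidneys. The groups overlapped, and the 95% interval of the difference, -0.72 to 0.51, includes a change of either sign. With scan as a block the difference was 0.24.

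The remaining inward rectifiers had overlapping groups. Kcnj13 had a difference of -0.22, Kcnj15, a proximal tubule rectifier, 0.18, Kcnj12 0.19, Kcnj5 -0.19 and Kcnj11, the pore of the beta-cell ATP-sensitive channel, -0.40. With scan as a block Kcnj13, Kcnj5 and Kcnj11 changed sign, to 0.04, 0.07 and 0.42, while Kcnj15 had 0.08 and Kcnj12 0.48. Kcnj3 passed the rule only with outlier-flagged spots counted and was not tested. It had 2.43 and 2.01 on Bailing Capsule replicates 2 and 3, against 2.03 and 3.39 on diabetic replicates 1 and 3. With flagged spots kept its difference was -0.40 (adjusted p = 0.887 in limma).

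Tandem-pore channels carry background potassium current. None of the 9 had groups that did not overlap, and their lowest adjusted p was 0.822. Kcnk1 had 4.74, 4.12 and 4.57 with Bailing Capsule, against 4.07 and 4.28 on diabetic replicates 1 and 3, a difference of 0.30 (95% interval -0.39 to 0.99). Kcnk5, an alkaline-sensitive channel of the proximal tubule, had 2.65, 2.57 and 2.22 with Bailing Capsule, against 3.06, 3.21 and 2.52 in diabetic kidneys. All but 1 of these diabetic values lay above the Bailing Capsule values, and the difference was -0.45 (95% interval -1.06 to 0.17). Kcnk10, which passed through the Bailing Capsule arrays, had 0.62, or -0.09 with scan as a block. Kcnk6 had 0.36, Kcnk3, an acid-sensitive channel, -0.13, Kcnk13 -0.21, Kcnk12 -0.35 and Kcnk16 -0.64. With scan as a block Kcnk3, Kcnk12 and Kcnk16 changed sign, to 0.34, 0.25 and 0.30, while Kcnk6 had 0.48 and Kcnk13 -0.28. The stretch-activated channel gene Kcnk2 had -0.16, or 0.36 with scan as a block, and -0.64 with a dimmer probe.

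The members varied more among diabetic than among Bailing Capsule arrays. Their median SD was 0.32 in Bailing Capsule kidneys and 0.46 in diabetic kidneys, where all features had 0.34 and 0.28. The diabetic arrays came from scans 1 and 2, the Bailing Capsule arrays from scan 1 alone. A difference between scans would enter only the diabetic SD, so group and scan cannot be told apart in it. Taken per array and relative to each gene's diabetic mean, the median member stood at 0.14, -0.18 and -0.19 with Bailing Capsule, against -0.29, 0.38 and -0.005 in diabetic kidneys. Diabetic replicate 1 was thus the lowest and replicate 2 the highest of the 6. The median feature of all those tested stood at 0.03, -0.18 and -0.14 with Bailing Capsule, and at -0.15, 0.21 and -0.04 in diabetic kidneys.

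Both arrays of scan 2 stood apart from all 4 of scan 1 for 16 of the 50 members with 6 values, 12 above and 4 below, or 32% against 19.9% of all features. Above were Kcna10, Kcnc2, Kcnc4, Kcng2, Kcnip1, Kcnj8, Kcnk3, Kcnk12, Kcnk16, Kcnmb3, Kcnq3 and Kcnv1, and below were Kcnk10, Kcnmb4, Kcnn2 and Kcnt1. With scan as a block the median over members was 0.35 in place of -0.11, and 0.09 over all features in place of -0.09. The sign changed for 21 members, and 36 differences were positive. The 9 members with separate groups could not change sign under the block, since diabetic replicate 1 lay outside the Bailing Capsule values.

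**Figure D4:**
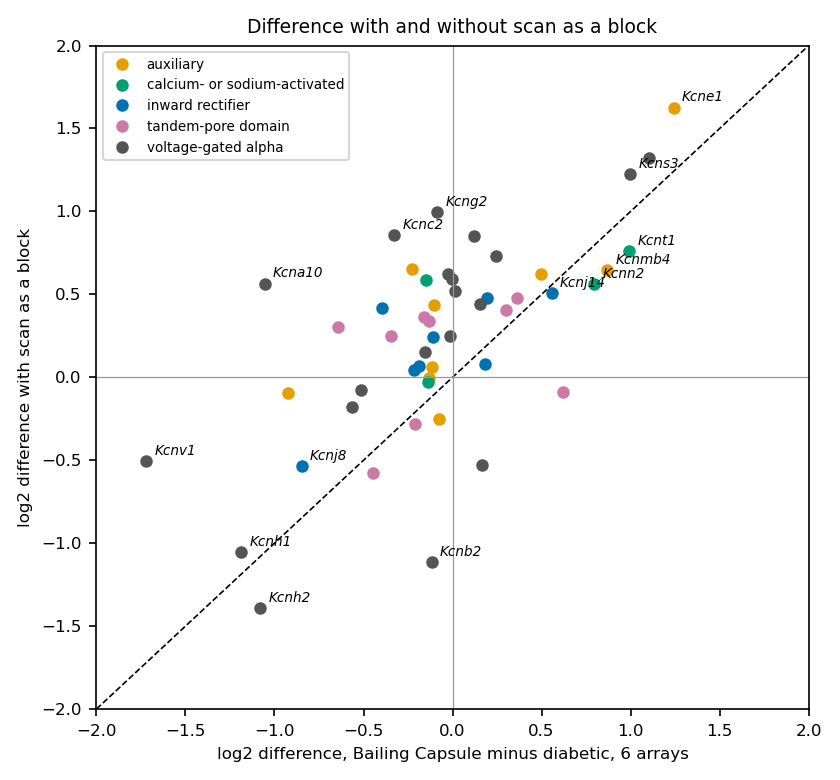
Log2 difference of 50 tested Kcn genes from all 6 arrays (horizontal axis) against the difference with scan as a block (vertical axis), coloured by class; the dashed line marks equal values. Kcna10 lies at -1.06 and 0.56, while Kcne1, Kcng3 (not labelled), Kcnh1 and Kcnh2 stay beyond 1 in size on both axes.

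Genes outside the family that bind these channels or move potassium were taken from a list of 33, of which 28 had a probe and 22 were tested. limma called 0 of them, with 9 positive and 13 negative differences and a median of -0.03. Dpp10, which like Kcnip1 joins Kcnd pores, had -2.49, -2.58 and -2.54 with Bailing Capsule, against -1.69, -0.19 and -0.61 in diabetic kidneys. The groups did not overlap, and the difference was -1.71 (SE 0.36, adjusted p = 0.121), or -0.84 with scan as a block. Without diabetic replicate 1 it passed, at -2.14 (adjusted p = 0.00695 in limma). In that setting 195 of 17892 features passed, and group and scan cannot be told apart. The next by p were Hsd11b2, which shields the mineralocorticoid receptor from glucocorticoids, at 0.50, and Slc12a3, the sodium-chloride cotransporter of the distal tubule, at 0.49. The sodium pump subunit gene Atp1b1 had -0.21, the pump's regulator Fxyd2 0.20, the kinase genes Wnk1 and Sgk1 0.25 and 0.48, and the mineralocorticoid receptor gene Nr3c2 0.12. With scan as a block Atp1b1 and Wnk1 changed sign, to 0.165 and -0.07. Under that block Fxyd2 had 0.51, Sgk1 0.06, Nr3c2 0.34, Hsd11b2 0.85 and Slc12a3 0.20.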

How the data were processed

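The arrays carried Cy3-labelled total kidney RNA, per the labels. A G2505C scanner and Feature Extraction 11.0.1.1 made the deposited spot intensity, background-subtracted and detrended, per the file headers. The deposited table holds log2 values, normalized between arrays as read from its equal column medians (5.05); its making is not given in the sources used here. It served as an alternative.

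Spots flagged as outliers were left out, those of a probe were averaged on the log2 scale, and the 75th percentile of each array's 30367 probes was subtracted. A probe counted as well above background where at least 50% of its spots were. A gene was represented by its brightest kept probe having at least 2 values per group. Unversioned accessions were looked up in the RefSeq genes of GRCr8, which named 18005 probes and left 12362 unnamed. Of the tested features 10633 were named.

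The test was lmFit and eBayes of limma 3.58.1 (R 4.3.3), with Benjamini-Hochberg adjustment over 17892 features, and the script was tested on simulated data. Members and lists were chosen with earlier results of these data known. Genes named were the members with separate groups, members with a known place in kidney, those with disagreeing probes or near the detection threshold, the brightest of each class and, of the partner list, the first 3 by p; names outside the rule are marked, or complete a class. Alternatives were other scalings, background correction (normexp, offset 50, on median spot signals), filters, probe rules, variance models, blocks and leaving out each array; keeping flagged spots and using scan 1 alone were added after seeing the data. The number of arrays limits the precision. The values of some genes are not reported here, though counts and medians include them.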

Additional observations from a re-analysis of the deposited data

How the results depend on the processing

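The 9 members with separate groups kept their sign and stayed uncalled under 19 alternatives; with arrays left out or blocked the sign could not change. Normexp gave smaller differences for them, 0.69 for Kcne1, 0.60 for Kcns3, 0.27 for Kcnt1, 0.39 for Kcnmb4, 0.14 for Kcnn2, 0.11 for Kcnj14, -0.58 for Kcnj8, -0.37 for Kcnh2 and -0.49 for Kcnh1; its offset of 50 shrinks dim probes. Of the 43 other tested members, 7 changed sign under a scaling alternative. The count of called members was 0 under each alternative except without diabetic replicate 1. It ran from 0 to 2 when 1 array was left out, and that of partner genes from 0 to 1. Without diabetic replicate 1, 195 of 17892 features were called, and each group came from a single scan. The count of called features, 57, was 16 with normexp, 6 with no filter, 6 with the replicate block and 9 within scan 1 (4 arrays), and between 17 and 195 with any single array removed. Removing arrays lowers the number of samples, and no filter raises the number of features. The cause of each change in count was not tested. Of the 57, 23 were higher and 34 lower with Bailing Capsule; the share higher was 55.6% in the deposited values, 71.8% with scan as a block and 16.7% with no filter. Same-numbered samples correlated at -0.181, -0.14 and 0.0194 after group means were removed, and none of the 6 was closest to its namesake. With 3 arrays per group this cannot show whether the samples were paired by design. With the replicate block 0 members were called. Dim probes limit the detection of low transcripts.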
